A study of Mus musculus with 12 samples.

Results

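The transcripts of 10 genes that build and load MHC class I molecules (H2-K1, H2-D1, B2m, Tap1, Tap2, Tapbp, Psmb8, Psmb9, Psmb10 and Nlrc5) were followed in macrophages and monocytes of the mouse bone marrow. The 10 genes were chosen by name for their place in the pathway, with earlier results of these data known. They were matched by symbol among the 56953 genes of the tables. In the order given their Ensembl identifiers are ENSMUSG00000061232, ENSMUSG00000073411, ENSMUSG00000060802, ENSMUSG00000037321, ENSMUSG00000024339, ENSMUSG00000024308, ENSMUSG00000024338, ENSMUSG00000096727, ENSMUSG00000031897 and ENSMUSG00000074151. All 10 were detected in each of the 12 libraries and all 10 were tested. None of them passed the test between eYFP+ and eYFP- macrophages. B2m was lower in Ly6Chi than in Ly6Clo monocytes by DESeq2 but not by edgeR (adjusted p = 0.0200 and 0.0774), the 1 gene of 10 called where 8.62% of all genes were. The immunoproteasome subunits Psmb8 and Psmb10 were lower in macrophages than in monocytes, 2 of 10 where 35.3% of all genes were called, and the call of Psmb10 held in 12 of 26 alternatives.

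MHC class I molecules display short peptides from the inside of a cell to CD8+ T cells. The proteasome cuts proteins into peptides, and interferons make cells build in the immunoproteasome subunits Psmb8, Psmb9 and Psmb10 in place of the constitutive Psmb5, Psmb6 and Psmb7. The transporter of Tap1 and Tap2 carries the peptides into the endoplasmic reticulum, where tapasin (Tapbp) holds empty heavy chains close to it. A heavy chain such as H2-K1 or H2-D1 pairs with beta-2-microglobulin (B2m), and Nlrc5 is a transactivator that drives transcription of the class I genes. Macrophages and monocytes carry class I molecules as nearly all nucleated cells do.

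RNA came from bone marrow of 8-week-old female C57BL/6J mice carrying Rank cre/+;R26.eYFP fl/+, in which Cre expressed from the Rank locus permanently switches on the reporter eYFP. The 4 groups of 3 libraries were eYFP+ macrophages (descended from embryonic progenitors), eYFP- macrophages (HSC derived, adult), Ly6Chi monocytes and Ly6Clo monocytes, none of them treated. Per the study, macrophages were sorted as F4/80+, CD206+ and VCAM1+ cells and monocytes as CD11b+ cells, so eYFP reports past Rank expression in a lineage and not a property of the macrophage itself. The labels do not say whether the 3 libraries of a group came from separate mice, so p-values measure the spread between these libraries, which may be technical.

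Depth was 26390927 to 48618187 counts per library. A pair of libraries stood apart. Ly6Clo replicate 2 had the lowest depth and the fewest genes detected, 16434 against 24769 and 22254 in its group. In Ly6Clo replicate 2, transcripts with a GC content of at least 55% had a median log2 ratio of -0.97 to the other replicates and those under 45% one of 0.48. In eYFP+ replicate 1 the values were -0.61 and 0.25, while in the other 10 libraries they lay between -0.34 and 0.32. Where a result changes much without these 2 libraries, the value without them is given as well. Summed levels of marker genes of both cell types, more than the proteins sorted on, went with the labels. Single genes did not all do so. Of 6 macrophage genes DESeq2 called 5 higher in macrophages, where 20.3% of all genes were. Of 8 monocyte genes 6 were tested, with 4 called lower and 2 higher in macrophages, where 15.0% of all genes were lower. By edgeR 6 monocyte genes were lower and 2 higher in macrophages. The summed level of 6 macrophage genes was 20839 to 28866 TPM (a level corrected for gene length and depth) in macrophages and 681 to 2586 TPM in monocytes, and that of 8 monocyte genes was 4942 to 8573 TPM and 32200 to 76774 TPM.

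The class I genes are known to share a promoter module bound by the enhanceosome that Nlrc5 joins. Promoters are shown for the 3 genes called in a comparison (B2m, Psmb8 and Psmb10), for the heavy chains that pair with B2m, and for Psmb9 and Tap1, which start in opposite directions from one short stretch. RefSeq promoter sequences (build GRCm38.p6, another build than that of the counts) were found for 8 of the 10 genes and not for Tap2 and Nlrc5. The 250 bases before the start are printed 5′ to 3′ on the strand of the gene. Capitals mark matches on either strand to 5 letter patterns: an interferon response element (GAAANNGAAA), a form of it that is 1 base shorter (GAANNGAAA), a Y box (CCAAT), an X2 box or CRE (TGACG) and a kappa B site (GGGNNTTNCC). H2-K1 has 2 listed starts, and the window of the first is shown at chr17:34000348-34000597, minus strand. H2-D1 is at chr17:35262844-35263093 and B2m at chr2:122147437-122147686, both on the plus strand. Psmb8 is at chr17:34197945-34198194 on the plus strand and Psmb10 at chr8:105938393-105938642 on the minus strand. The 225 bases between the starts of Psmb9 and Tap1 are chr17:34187331-34187555 on the plus strand, which is that of Tap1.
H2-K1: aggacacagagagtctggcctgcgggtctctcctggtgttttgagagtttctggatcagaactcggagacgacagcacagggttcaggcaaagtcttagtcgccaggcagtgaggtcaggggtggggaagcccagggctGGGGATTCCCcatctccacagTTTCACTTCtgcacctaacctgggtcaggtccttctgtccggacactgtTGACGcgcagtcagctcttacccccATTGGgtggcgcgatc
H2-D1: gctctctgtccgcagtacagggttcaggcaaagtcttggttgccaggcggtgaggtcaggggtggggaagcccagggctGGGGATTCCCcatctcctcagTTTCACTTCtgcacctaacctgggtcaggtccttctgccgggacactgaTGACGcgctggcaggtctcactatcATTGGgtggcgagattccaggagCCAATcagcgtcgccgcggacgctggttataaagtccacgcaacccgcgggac
B2m: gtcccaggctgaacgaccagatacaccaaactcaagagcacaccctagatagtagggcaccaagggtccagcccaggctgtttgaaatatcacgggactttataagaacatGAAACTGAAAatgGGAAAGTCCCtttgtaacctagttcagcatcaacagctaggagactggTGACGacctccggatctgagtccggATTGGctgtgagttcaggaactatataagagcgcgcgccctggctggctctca
Psmb8: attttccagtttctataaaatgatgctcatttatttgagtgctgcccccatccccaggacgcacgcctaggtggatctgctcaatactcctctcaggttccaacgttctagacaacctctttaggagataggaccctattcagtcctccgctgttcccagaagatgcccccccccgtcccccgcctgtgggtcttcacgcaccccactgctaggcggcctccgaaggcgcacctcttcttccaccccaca
Psmb10: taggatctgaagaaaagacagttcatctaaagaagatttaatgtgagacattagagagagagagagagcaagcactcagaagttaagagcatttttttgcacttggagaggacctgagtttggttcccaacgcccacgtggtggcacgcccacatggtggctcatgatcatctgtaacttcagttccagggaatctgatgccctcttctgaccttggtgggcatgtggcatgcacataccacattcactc
Psmb9 to Tap1: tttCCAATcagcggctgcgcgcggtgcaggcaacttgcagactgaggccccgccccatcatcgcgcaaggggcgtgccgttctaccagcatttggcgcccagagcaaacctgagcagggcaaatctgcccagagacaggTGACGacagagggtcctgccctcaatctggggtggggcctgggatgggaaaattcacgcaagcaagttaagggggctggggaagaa

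Both heavy chain promoters held a kappa B match, the shorter interferon form, TGACG and a CCAAT match in this order, and neither held GAAANNGAAA. In H2-K1 the kappa B match began 111 bases before the start, the shorter interferon form 90, TGACG 41 and the CCAAT match 16 bases before it. In H2-D1 each began 60 bases farther from the start, with another CCAAT match at 53. The window of the second H2-K1 start, not shown, also held another CCAAT match, beginning 6 bases before that start. Shifted by 60 bases, the 2 windows were identical at 166 of 190 aligned bases (87.4%). B2m held GAAANNGAAA, a kappa B match, TGACG and CCAAT, beginning 139, 126, 78 and 53 bases before the start, and not the shorter interferon form. The stretch between Psmb9 and Tap1 held 1 TGACG and 1 CCAAT, the Tapbp window 2 CCAAT, and the windows of Psmb8 and Psmb10 none of the 5 patterns. Of 32841 windows of 250 bases before mouse gene starts, 2.98% held GAAANNGAAA, 6.31% the shorter form, 33.9% CCAAT, 17.8% TGACG and 4.11% the kappa B motif. A match is a description of the letters and not evidence of binding.

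The heavy chains and their partner were by far the most abundant of the 10 transcripts. B2m, the invariant light chain, was at 12960.2 to 16256 TPM in eYFP+ macrophages and at 12155 to 12442 TPM in eYFP- macrophages. It was at 10659.8, 9798 and 10406 TPM in the 3 Ly6Chi libraries and at 17859, 15678 and 18595 TPM in the 3 Ly6Clo libraries. The monocyte groups did not overlap, and each Ly6Clo library exceeded each Ly6Chi library. B2m had the second smallest spread of the 10, the highest library being 1.90 times the lowest.

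H2-K1, the K-locus heavy chain, was at 1193, 2488 and 2660.4 TPM in eYFP+ and at 1443, 2540.1 and 1973 TPM in eYFP- macrophages. It was at 2127, 1829 and 2301 TPM in Ly6Chi and at 4538, 2154 and 4820.2 TPM in Ly6Clo monocytes. Of the Ly6Clo libraries, replicates 1 and 3 lay above every other library, and replicate 2, 1 of the pair that stood apart, lay within the Ly6Chi range.

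H2-D1, the D-locus heavy chain, was at 1054, 4781 and 5552 TPM in eYFP+ macrophages and at 4485, 4601 and 5162 TPM in eYFP- macrophages. It was at 5488, 4978 and 6040.2 TPM in Ly6Chi and at 8742, 4347 and 10257 TPM in Ly6Clo monocytes. Again Ly6Clo replicates 1 and 3 were the highest, while eYFP+ replicate 1 was the lowest of the 12. H2-D1 exceeded H2-K1 in 11 of 12 libraries, with a median TPM ratio of 2.11. The exception was eYFP+ replicate 1, at 0.883. B2m exceeded the sum of both heavy chains in 12 of 12 libraries, by a median of 1.64 times, and by 7.23 times in eYFP+ replicate 1.

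The peptide transporter was expressed at lower levels. Tap1 was at 72.5, 142 and 147 TPM in eYFP+ macrophages, 113, 156 and 163 TPM in eYFP- macrophages, 240.2, 196 and 222 TPM in Ly6Chi and 174, 49.4 and 159.5 TPM in Ly6Clo monocytes. The 3 Ly6Chi libraries were the 3 highest of the 12. Its partner Tap2 was at 32.7, 61.5 and 70.3 TPM, 72.6, 68.1 and 87.1 TPM, 57.1, 48.8 and 62.8 TPM, and 63.4, 14.5 and 70.6 TPM in the same order of groups. All 4 groups overlapped for Tap2 apart from Ly6Chi and eYFP-. Tap1 exceeded Tap2 in each library, by 1.56 to 4.21 times on the TPM scale.

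Tapbp, the tapasin that bridges the transporter and the empty heavy chain, was at 408, 395 and 454 TPM in eYFP+ and at 418, 394 and 419 TPM in eYFP- macrophages. It was at 572, 486 and 568 TPM in Ly6Chi and at 422, 93.3 and 499.9 TPM in Ly6Clo monocytes. The macrophage libraries were thus close together, and Ly6Clo replicate 2 lay far below all others.

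Among the immunoproteasome subunits, Psmb8 (the chymotrypsin-like subunit) was at 309, 239 and 270.1 TPM in eYFP+ and at 324, 278 and 294 TPM in eYFP- macrophages. It was at 405, 373 and 403 TPM in Ly6Chi and at 363, 659 and 400.3 TPM in Ly6Clo monocytes. Every macrophage library lay below every monocyte library. Psmb10, the trypsin-like subunit, was at 163, 161 and 169 TPM, 192, 162 and 176 TPM, 243, 238 and 252 TPM, and 173, 366 and 197 TPM in the 4 groups in that order. The Ly6Chi libraries exceeded all macrophage libraries, while Ly6Clo replicate 1 lay among them. Psmb9, which replaces Psmb6, was at 146, 230.3 and 256 TPM, 196, 244 and 267 TPM, 241, 237 and 255 TPM, and 246, 198 and 244 TPM. It had the smallest spread of the 10, the highest library being 1.83 times the lowest.

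Nlrc5 was the least abundant of the 10. It was at 5.91, 9.02 and 18.7 TPM in eYFP+ macrophages, 3.83, 18.7 and 6.17 TPM in eYFP- macrophages, 14.7, 11.4 and 13.2 TPM in Ly6Chi and 11.1, 3.0 and 7.23 TPM in Ly6Clo monocytes. Ly6Chi monocytes lay above Ly6Clo monocytes in each library, whereas the macrophage libraries spanned a wider range than both.

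**Figure D1:**
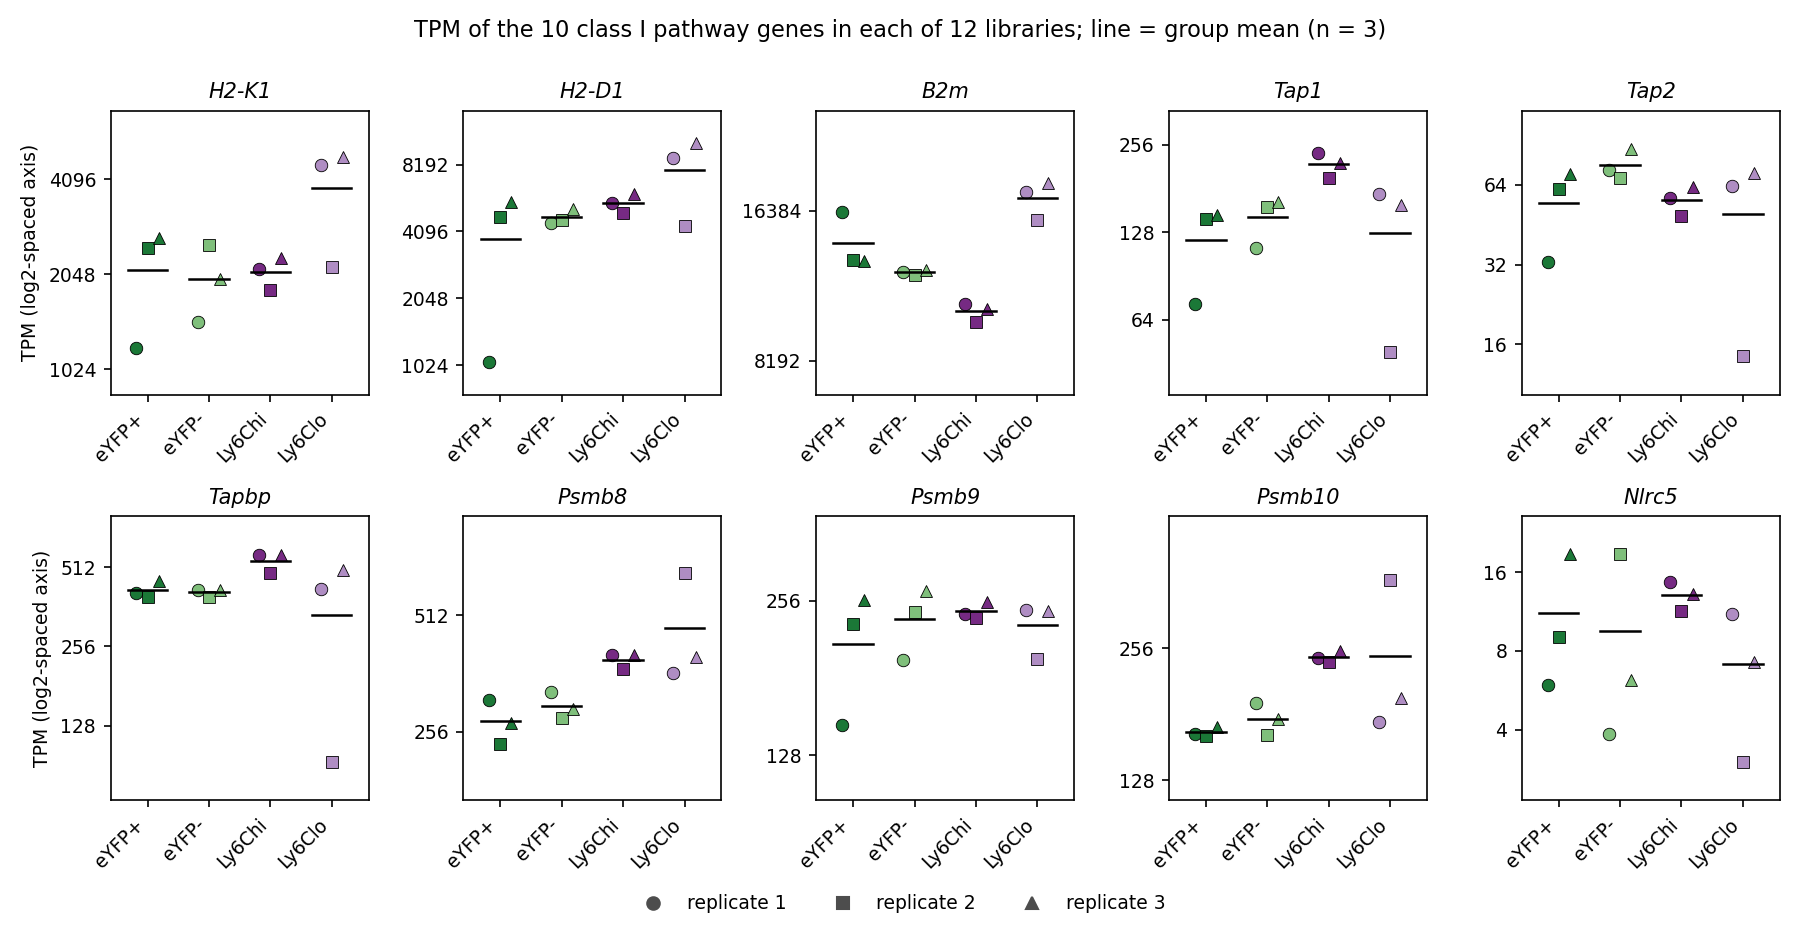
Level of each of the 10 genes in each of the 12 libraries, in TPM on a log axis, by group. Circles, squares and triangles are replicates 1, 2 and 3, and lines are group means. Ly6Clo replicate 2 is the lowest library for Tap1, Tap2, Tapbp and Nlrc5 and the highest for Psmb8 and Psmb10.

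The first comparison asked whether macrophages of embryonic and of adult origin differ in this pathway. None of the 10 genes was called by DESeq2 (Benjamini-Hochberg adjusted p under 0.05 over all genes tested), against 2.04% of all genes tested. None had an unadjusted p under 0.05, and edgeR called none of them either, against 0.334% of all genes. The log2 fold changes (eYFP+ minus eYFP-) ran from -0.47 ± 0.49 (SE) for Tap2 to 0.29 ± 0.58 for Nlrc5. Their median was -0.09, beside 0.05 over all genes. The intervals leave room for a moderate difference in single genes. The 95% interval of B2m, at 0.24, was -0.22 to 0.69, and the widest ones were those of Nlrc5, -0.85 to 1.44, and H2-D1, -1.32 to 0.63. In normalized counts all 10 genes overlapped between the 2 macrophage groups, while 15.2% of all genes did not overlap. On the TPM scale each eYFP+ library had more B2m than each eYFP- library. How many of all genes separate on that scale was not counted, so no conclusion is drawn from it. Without Ly6Clo replicate 2 and eYFP+ replicate 1, still none was called, against 4.61% of all genes. H2-D1 then changed the sign of its estimate, from -0.35 to 0.07.

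The monocyte comparison asked whether the Ly6C classes differ in this pathway. B2m was 1.68-fold lower in Ly6Chi than in Ly6Clo monocytes, with a log2 fold change of -0.75 ± 0.23 (DESeq2 adjusted p = 0.0200). It was the 1 gene of 10 called, and 4.96% of all genes were called lower and 8.62% in either direction. The direction held in 27 of 27 alternatives, whereas the call held in 17 of them. With edgeR its adjusted p was 0.0774, and edgeR called none of the 10 genes, against 4.32% of all genes, with 2 at an unadjusted DESeq2 p under 0.05. Leaving out eYFP- replicate 3 (0.0585), any of Ly6Chi replicates 1 (0.0901), 2 (0.130) and 3 (0.0934), Ly6Clo replicate 1 (0.0521) or Ly6Clo replicate 3 (0.0906) took the DESeq2 adjusted p of B2m above 0.05, which left 0 of the 10 genes called.

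Both heavy chains had estimates in the direction of B2m that did not pass the test. That of H2-K1 was -0.86 ± 0.37 (DESeq2 adjusted p = 0.140) and that of H2-D1 -0.48 ± 0.50 (DESeq2 adjusted p = 0.645). The transporter genes, tapasin and Nlrc5 had positive estimates, of 0.81 ± 0.43 for Tap1, 0.21 ± 0.49 for Tap2, 0.71 ± 0.48 for Tapbp and 0.91 ± 0.58 for Nlrc5, none past the threshold. Without the 2 libraries that stood apart these were 0.44 for Tap1, -0.21 for Tap2, 0.27 for Tapbp and 0.56 for Nlrc5, again none past the threshold, while H2-K1, H2-D1 and B2m were all lower in Ly6Chi monocytes, against 6.88% of all genes. H2-K1 then fell by 1.13 ± 0.21 on the log2 scale (DESeq2 adjusted p = 2.9e-06), H2-D1 fell by 0.75 ± 0.20 (DESeq2 adjusted p = 0.00193), and B2m fell by 0.79 ± 0.17 (DESeq2 adjusted p = 5.21e-05). Without Ly6Clo replicate 2 alone, H2-K1 and B2m were called, where 5.25% of all genes were called lower, that of H2-K1 at -1.12 (DESeq2 adjusted p = 0.00591). In normalized counts B2m, Tap1 and Nlrc5 did not overlap between the monocyte groups, 3 of 10 genes, where 28.1% of all genes did not. The median of the 10 was 0.04, beside 0.02 over all genes.

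Markers of dendritic cells, which carry much class I and class II, moved along with Ly6C. The summed level of 8 of them was 112 to 125 TPM in Ly6Chi monocytes. It was 743, 2864 and 665 TPM in Ly6Clo replicates 1, 2 and 3, the highest being a library that stood apart. By DESeq2 6 of the 8 were lower in Ly6Chi monocytes, where 4.96% of all genes were, and 3 of the 8 by edgeR. Without both libraries that stood apart DESeq2 called 5 of the 8 lower, where 6.88% of all genes were. Cd209a, which monocyte subsets also express, made up most of the sum, at 88.9 to 91.1 TPM in Ly6Chi and 549 to 2820 TPM in Ly6Clo monocytes. The 2820 TPM came from Ly6Clo replicate 2, and Ccr7 was at 0 in each Ly6Chi library. In bulk RNA, fewer cells of a type and less RNA per cell cannot be told apart. Macrophage marker genes moved with Ly6C too, 5 of 6 being lower in Ly6Chi monocytes by DESeq2, again beside 4.96% of all genes, and 3 of 6 by edgeR. Vcam1 fell by 1.97 on the log2 scale and Fcna by 2.84, and the summed levels were 1310 to 1474 TPM in Ly6Chi and 681 to 2586 TPM in Ly6Clo monocytes. The other lists were summed likewise. Ly6Chi and Ly6Clo monocytes had 15694 to 23871 and 6729 to 15915 TPM of neutrophil genes, 545 to 608 and 629 to 1469 TPM of B cell genes, 28.6 to 51.1 and 22.9 to 28.7 TPM of T and NK cell genes and 2.13 to 4.08 and 60.3 to 77.4 TPM of megakaryocyte genes. Ly6Clo replicate 2 gave the 681 TPM of macrophage genes and the 6729 TPM of neutrophil genes. It also gave the 1469 TPM of B cell genes and the 77.4 TPM of megakaryocyte genes. The part of these cells in the class I result was not tested.

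The third comparison set both macrophage groups against both monocyte groups. Psmb8 was 1.62-fold lower in macrophages, with a log2 fold change of -0.70 ± 0.23 (DESeq2 adjusted p = 0.0104). Psmb10 was 1.54-fold lower, with -0.63 ± 0.24 (DESeq2 adjusted p = 0.0321). These 2 of 10 genes compare with 35.3% of all genes called and 15.0% called lower, so the share of the 10 is near the background and is no result about the list. edgeR called 2 of the 10 as well, against 35.6% of all genes. Psmb9, the remaining immunoproteasome subunit, was at -0.20 ± 0.16 (DESeq2 adjusted p = 0.386). In normalized counts Psmb8 was the 1 gene of 10 that did not overlap between the cell types, against 17.7% of all genes.

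The call of Psmb8 held in 24 of 26 alternatives. It was lost without eYFP- replicate 2 (DESeq2 adjusted p = 0.0654) and without eYFP+ replicate 2 (DESeq2 adjusted p = 0.0663). That of Psmb10 held in 12 of 26, and its DESeq2 adjusted p was 0.150 without eYFP- replicate 2, 0.0800 without eYFP- replicate 3, 0.126 without eYFP+ replicate 2, 0.0827 without eYFP+ replicate 3 and 0.0728, 0.0634 and 0.0741 without Ly6Chi replicates 1, 2 and 3. The number of genes called was 0 without eYFP- replicate 2 or eYFP+ replicate 2, 1 without eYFP- replicate 3 or any Ly6Chi replicate and 6 without Ly6Clo replicate 2, all lower, where 17.7% of all genes were called lower.

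The heavy chains did not pass the test, at -0.58 ± 0.26 for H2-K1 (DESeq2 adjusted p = 0.0686) and -0.74 ± 0.35 for H2-D1 (DESeq2 adjusted p = 0.087). Tap1 was at -0.45 ± 0.30, Tap2 at 0.19 ± 0.35, Tapbp at -0.13 ± 0.34, B2m at -0.11 ± 0.16 and Nlrc5 at -0.04 ± 0.41, none past the threshold. The median of the 10 was -0.32, beside 0.08 over all genes. Without the 2 libraries that stood apart, 7 of the 10 genes were lower in macrophages, where 18.9% of all genes were. These were H2-K1, H2-D1, B2m, Tap1, Tapbp, Psmb8 and Psmb10, and their log2 fold changes ran from -0.71 ± 0.14 for H2-D1 to -0.27 ± 0.12 for B2m (DESeq2 adjusted p = 1.69e-06 and 0.0484). Tap1 fell by 0.57 ± 0.13 on the log2 scale and Tapbp by 0.42 ± 0.14. Tap2, Psmb9 and Nlrc5 were not called.

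Erythroid genes went with the macrophage gate, summing to 8966 to 14462 TPM in eYFP+ and 22233 to 35146 TPM in eYFP- macrophages against 355 to 1405 TPM in monocytes, and 8 of 8 were higher in macrophages, where 20.3% of all genes were. Megakaryocyte genes summed to 122 to 201 TPM and 143 to 196 TPM, neutrophil genes to 122 to 209 TPM and 241 to 2621 TPM, B cell genes to 484 to 720 TPM and 511 to 612 TPM, and T and NK cell genes to 8.37 to 22.3 TPM and 61.3 to 124 TPM in eYFP+ and eYFP- macrophages. Dendritic cell genes summed to 25.9 to 50.9 TPM and 35.5 to 66.6 TPM. Stromal and endothelial genes summed to 10.9 to 19.7 TPM and 51.4 to 97.1 TPM in macrophages, 1.5 to 45.5 TPM in Ly6Chi and 1.58 to 20.1 TPM in Ly6Clo monocytes. Their part in the class I values was not tested.

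**Figure D2:**
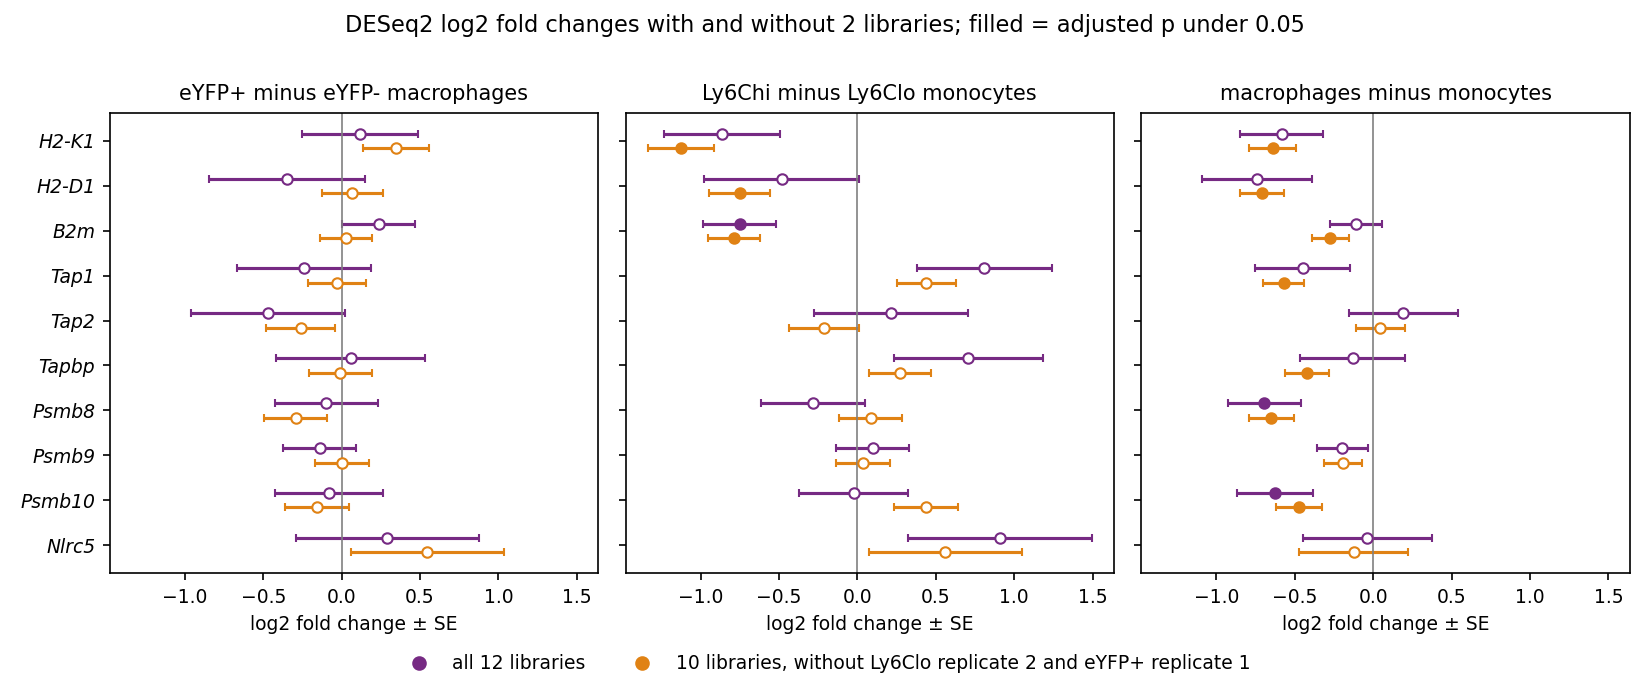
Log2 fold change of each of the 10 genes in the 3 comparisons (horizontal axis, log2 units; bars are standard errors, filled points have an adjusted p under 0.05), with all 12 libraries and without Ly6Clo replicate 2 and eYFP+ replicate 1. Without the 2 libraries the number of genes called goes from 1 to 3 between the monocyte groups and from 2 to 7 between the cell types, while it stays at 0 between the macrophage groups.

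The order of the 4 group means of normalized counts was examined for each gene with the contrasts of single macrophage and monocyte groups. Ly6Clo monocytes had the highest mean for H2-K1, H2-D1, B2m, Psmb8 and Psmb10. For Psmb8 and Psmb10 that rank rested on Ly6Clo replicate 2, without which Ly6Chi minus Ly6Clo went from -0.28 to 0.0853 and from -0.02 to 0.44. Ly6Chi monocytes had the highest for Tap1, Tapbp, Psmb9 and Nlrc5, and eYFP- macrophages for Tap2. In none of the 10 orders did 2 neighbouring groups differ by DESeq2. Groups further apart did in a few cases. H2-K1 was lower in eYFP+ macrophages than in Ly6Clo monocytes by a log2 fold change of -0.96 ± 0.37 (DESeq2 adjusted p = 0.0377), and in eYFP- macrophages by -1.07 ± 0.37 (DESeq2 adjusted p = 0.0184). Psmb8 was lower in eYFP+ macrophages than in Ly6Clo monocytes, at -0.89 ± 0.33 (DESeq2 adjusted p = 0.0290). B2m was lower in eYFP- macrophages than in Ly6Clo monocytes, at -0.61 ± 0.23 (DESeq2 adjusted p = 0.0384). These are 2 of 10 genes for each macrophage group, where 28% (eYFP+) and 26.3% (eYFP-) of all genes were called. With edgeR 1 call was left for each macrophage group. With the replicate number as a block none was left for eYFP+ and 1 for eYFP- macrophages. Against Ly6Chi monocytes none of the 10 was called for either macrophage group, where 24.5% and 27.4% of all genes were, and without Ly6Clo replicate 2 there were 4 calls for each, where 34.9% (eYFP+) and 32.2% (eYFP-) of all genes were called. For eYFP+ macrophages against Ly6Clo monocytes no call was left without eYFP- replicate 3, Ly6Chi replicate 1 or eYFP+ replicate 2, and 1 without Ly6Clo replicate 3, Ly6Chi replicate 2 or Ly6Chi replicate 3. For eYFP- macrophages none was left without eYFP- replicate 1, eYFP- replicate 3 or Ly6Clo replicate 3, and 1 without eYFP- replicate 2, Ly6Clo replicate 1, eYFP+ replicate 2 or any Ly6Chi replicate.

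To compare each immunoproteasome subunit with the constitutive one it replaces, the ratio of their TPM was taken within each library. The Psmb8/Psmb5 ratio was 3.78, 2.09 and 2.40 in eYFP+ and 3.25, 2.14 and 2.73 in eYFP- macrophages, and 2.52, 2.07 and 2.37 in Ly6Chi and 2.69, 10.8 and 2.85 in Ly6Clo monocytes. The inducible transcript was thus the more abundant one in each library. The Psmb10/Psmb7 ratio was 2.32, 2.35 and 2.49, then 2.77, 2.27 and 2.45, then 3.17, 2.86 and 3.24, then 2.63, 11.8 and 2.83 in the same order of groups. The Psmb9/Psmb6 ratio stayed near or under 1, at 0.326, 1.02 and 0.990, then 0.498, 1.01 and 0.827, then 0.986, 0.984 and 0.962, then 1.19, 0.278 and 0.982. Ly6Clo replicate 2 was the outer value of its group for all 3 ratios.

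Of 9 tests on log2 ratios, 1 passed. The log2 Psmb10/Psmb7 ratio was 1.28 ± 0.10 (SD, n = 6) in macrophages and 1.89 ± 0.83 (SD, n = 6) in monocytes, a difference of -0.60 (exact two-sided permutation p = 0.00433, adjusted over the 9 tests p = 0.0390). Without the 2 libraries that stood apart the difference was -0.26 (exact two-sided permutation p = 0.0159, adjusted p = 0.143), smaller in size and no longer past the threshold. The call was also lost without any of eYFP- replicates 2 and 3, eYFP+ replicates 1 to 3, Ly6Chi replicates 1 to 3 and Ly6Clo replicates 2 and 3, each giving an adjusted exact permutation p of at least 0.0779. Between the monocyte groups the log2 Psmb8/Psmb5 ratio differed by -0.92 without overlap (exact two-sided permutation p = 0.1, adjusted p = 0.45), the smallest p that 3 against 3 libraries allow. Without Ly6Clo replicate 2 that difference was -0.26 (exact two-sided permutation p = 0.2). Psmb5 shares 57.1% of its 50-base windows with other genes, most with Gm3375, so unambiguous counting may have cost it reads.

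**Figure D3:**
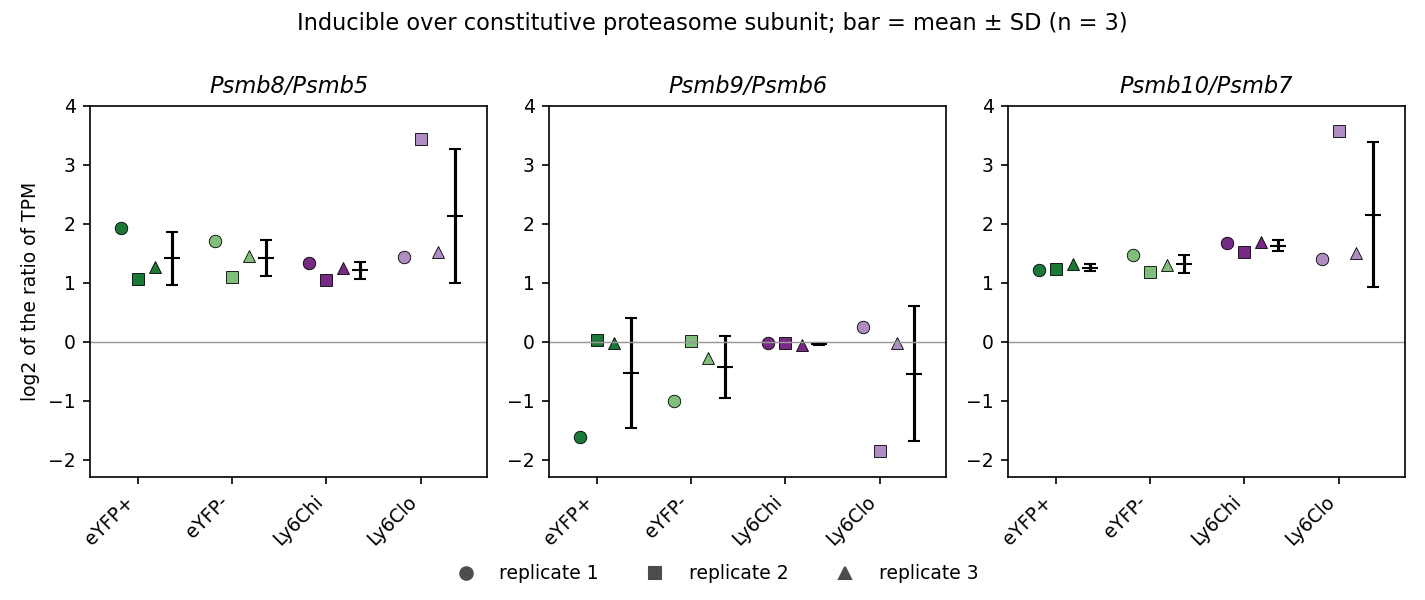
Ratio of each immunoproteasome subunit to the constitutive subunit it replaces, from TPM, in the 12 libraries (vertical axis, log2 of the TPM ratio). Circles, squares and triangles are replicates 1, 2 and 3, bars are group means ± SD (n = 3), and the line at 0 marks equal levels. Ly6Clo replicate 2, with ratios of 10.8 and 11.8 for Psmb8/Psmb5 and Psmb10/Psmb7 and 0.278 for Psmb9/Psmb6, widens the spread of its group in all 3 panels.

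The GC content of the transcripts is given beside the values of the libraries that stood apart, and its part in them was not tested. B2m has a GC content of 41.2%, Psmb8 52.5%, Nlrc5 52.6%, Psmb9 54.1%, H2-K1 54.3%, Tap1 55.8%, H2-D1 55.9%, Psmb10 56.5%, Tap2 56.9% and Tapbp 57.1%. In Ly6Clo replicate 2 the log2 ratio to the other replicates was -2.19 for Tapbp, -2.10 for Tap2, -1.63 for Tap1, -1.48 for Nlrc5, -1.02 for H2-D1 and -1.0 for H2-K1, while it was 0.90 for Psmb8 and 1.10 for Psmb10. It was -0.10 for B2m and -0.19 for Psmb9. In eYFP+ replicate 1 it was -2.07 for H2-D1, -1.0 for Nlrc5, -0.89 for H2-K1, -0.79 for Tap2, -0.78 for Tap1 and -0.51 for Psmb9, while it was 0.16 for Tapbp, 0.21 for Psmb10, 0.50 for Psmb8 and 0.54 for B2m. The heavy chains also share sequence with their paralogs. H2-D1 shares 14.3% and H2-K1 8.11% of 50-base windows with other genes, Tapbp 21.0% (most with Gm19412) and Tap2 12.6% (most with Gm15821), so their levels are uncertain to that extent, whereas B2m, Nlrc5, Psmb9 and Psmb10 share none.

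Across the 12 libraries the variance-stabilised values of some of the 10 genes ran together, which is given as a description since libraries of a group are not independent points. Pearson's r was 0.95 for Psmb8 and Psmb10, 0.87 for H2-D1 and Psmb9, 0.81 for Tapbp with each of Tap1 and Tap2, 0.80 for H2-K1 and H2-D1, 0.74 for Tap1 and Tap2, 0.71 for Tap1 and Psmb9 and 0.69 for Tap1 and Nlrc5. In the 10 libraries left without the 2 that stood apart, r was 0.90 for Psmb8 and Psmb10, 0.87 for H2-K1 and H2-D1, 0.82 for Tap1 and Tapbp, 0.78 for Tap1 and Psmb9, 0.56 for H2-D1 and Psmb9 and 0.44 for Tap1 and Nlrc5, but -0.0551 for Tap2 and Tapbp and -0.33 for Tap1 and Tap2. Over all 12 libraries r was -0.63 for Tap2 with each of Psmb8 and Psmb10, -0.55 for Nlrc5 and B2m, -0.53 for B2m and Tap1 and -0.44 for Nlrc5 and Psmb8. In the 10 libraries these were 0.0134 and -0.12 for Tap2, then -0.38, -0.19 and -0.0508. H2-D1 and B2m went from -0.0121 to 0.83, and Tapbp and Psmb10 from -0.43 to 0.95. Among genes outside the 10, those most like H2-K1 were Ccpg1 (0.96), H2-Q6 (0.94), itself a class I heavy chain, and Pou2f2 (0.91). Those most like Psmb8 were Sub1 (0.99), Gm6517 (0.98) and Cldnd1 (0.98), and those most like Nlrc5 were Ube4b (0.95), Dop1b (0.95) and Plxnb2 (0.95).

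The wider pathway was followed in 82 further genes of 7 lists, of which 78 were tested. Between eYFP+ and eYFP- macrophages DESeq2 called none, where 2.04% of all genes were called, and edgeR none, where 0.334% were. An unadjusted DESeq2 p under 0.05 was found for 5. Without both libraries that stood apart 1 was called, where 4.61% of all genes were. It was the cytokine signalling inhibitor Socs3, at -1.69 (DESeq2 adjusted p = 6.79e-06) beside -1.77 with all 12. Between Ly6Chi and Ly6Clo monocytes DESeq2 called 11 (4 higher and 7 lower in Ly6Chi), 14.1% of those tested, and between macrophages and monocytes 36 (16 higher and 20 lower in macrophages), 46.2% of those tested. Over all genes 8.62% were called between the monocyte groups and 35.3% between the cell types. With edgeR 5 and 35 of the pathway genes were called, where 4.32% and 35.6% of all genes were. The count for the monocyte groups was 7 without Ly6Chi replicate 2 or Ly6Chi replicate 3, and 17 without both libraries that stood apart, where 13.6% of all genes were called. Between the cell types it was then 50, where 41.2% of all genes were called.

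Nonclassical heavy chains, which present to specialised lymphocytes, moved in both directions between the cell types. Of 12 tested, 2 were higher in macrophages and 6 lower, where 20.3% of all genes were higher and 15.0% lower. H2-K2 (0.81 ± 0.30, DESeq2 adjusted p = 0.0248, edgeR adjusted p = 0.0867) and H2-M3, which presents formylated peptides (0.43 ± 0.16, DESeq2 adjusted p = 0.0210), rose on the log2 scale. Without the 2 libraries that stood apart H2-K2 was at 0.64 (DESeq2 adjusted p = 0.0744), and with the GC correction H2-M3 was at 0.23 (DESeq2 adjusted p = 0.462) and H2-K2 at 0.63 (DESeq2 adjusted p = 0.0561). H2-Q7 (-2.07 ± 0.41, DESeq2 adjusted p = 3.58e-06), H2-Q6 (-1.66 ± 0.48, DESeq2 adjusted p = 0.00248) and H2-T10 (-1.16 ± 0.19, DESeq2 adjusted p = 8.75e-09) fell. Among the monocytes H2-T24 was higher in Ly6Chi (1.01 ± 0.21, DESeq2 adjusted p = 1.17e-04) and 3 were lower, where 3.66% of all genes were higher and 4.96% lower. Among these 3 were H2-Q6 (-2.28 ± 0.68, DESeq2 adjusted p = 0.0137) and H2-Q7 (-1.97 ± 0.58, DESeq2 adjusted p = 0.0120), and with edgeR their adjusted p was 0.108 and 0.0928. H2-Q6, H2-Q7 and H2-T10 share 35%, 28.5% and 50.1% of their 50-base windows with other genes, so their values are uncertain.

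Of 7 genes of further class I-like proteins, most of which pair with B2m, 6 were tested and all 6 were higher in macrophages by DESeq2, and 5 by edgeR, where 20.3% of all genes were higher by DESeq2. The gene called by DESeq2 alone was Procr. Cd1d1, which presents lipids to NKT cells, was higher by 4.31 ± 0.31 on the log2 scale (DESeq2 adjusted p = 2.17e-42), its paralog Cd1d2 by 4.17 ± 0.45 (DESeq2 adjusted p = 7.88e-19) and Mr1, which presents vitamin metabolites to MAIT cells, by 3.89 ± 0.62 (DESeq2 adjusted p = 3.08e-09). Between the monocyte groups 3 of 6 were lower in Ly6Chi. Hfe, the hereditary haemochromatosis protein, fell by 2.61 ± 0.25 (DESeq2 adjusted p = 1.37e-23), Fcgrt, the neonatal Fc receptor chain, by 2.32 ± 0.31 (DESeq2 adjusted p = 2.02e-11), and Procr, the endothelial protein C receptor, by 2.06 ± 0.63 (DESeq2 adjusted p = 0.0175, edgeR adjusted p = 0.114). Without the 2 libraries that stood apart Procr was at -1.71 (DESeq2 adjusted p = 0.0586). Of all genes 4.96% were called lower there. Procr is a class I fold protein that does not itself bind B2m.

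Of 11 chaperones and other loading genes of the endoplasmic reticulum, 4 were higher in macrophages and 2 lower, where 20.3% of all genes were higher and 15.0% lower. Hspa5 (BiP) rose by 1.11 ± 0.30 (DESeq2 adjusted p = 0.00107), calreticulin (Calr), which holds heavy chains in the loading complex, by 0.82 ± 0.29 (DESeq2 adjusted p = 0.0169), calnexin (Canx) by 0.79 ± 0.18 (DESeq2 adjusted p = 5.8e-05) and Pdia3 (ERp57), the tapasin-bound disulfide isomerase, by 0.61 ± 0.17 (DESeq2 adjusted p = 0.00114). Pdia3 was at 704 ± 51.2 and 668 ± 50.7 TPM in eYFP+ and eYFP- macrophages, against 388 ± 21.9 and 446 ± 85.3 TPM in Ly6Chi and Ly6Clo monocytes (SD, n = 3 each). Sec61b, a translocon subunit, fell by 1.01 ± 0.15 (DESeq2 adjusted p = 3.04e-10) and Lnpep, an aminopeptidase of endosomes, by 0.95 ± 0.31 (DESeq2 adjusted p = 0.00813). Between Ly6Chi and Ly6Clo monocytes P4hb (0.96 ± 0.30, DESeq2 adjusted p = 0.0194, edgeR adjusted p = 0.0543) and Sec61b (0.80 ± 0.21, DESeq2 adjusted p = 0.00446) were higher in Ly6Chi. With the GC correction Sec61b was at 0.22 there (DESeq2 adjusted p = 0.804).

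The constitutive subunits Psmb5, Psmb6 and Psmb7 passed no test in any of the 3 comparisons by DESeq2 or edgeR, with 0, 1 and 1 of the 3 at an unadjusted p under 0.05. Psmb5 was at -0.46 between the cell types, and was called lower in macrophages without the 2 libraries that stood apart (-0.60, DESeq2 adjusted p = 4.76e-07) and with the GC correction (-0.66, DESeq2 adjusted p = 5.59e-05). Of 19 genes of the proteasome core, activators and assembly factors, 1 was higher in macrophages (Psmg2, an assembly chaperone, 0.57 ± 0.21, DESeq2 adjusted p = 0.0210) and 3 were lower, all of them core subunits, 4 of 19 called beside 35.3% of all genes. These were Psma7 (-1.05 ± 0.32, DESeq2 adjusted p = 0.00359), Psma1 (-0.50 ± 0.18, DESeq2 adjusted p = 0.0227) and Psmb4 (-0.46 ± 0.13, DESeq2 adjusted p = 0.00123). With the GC correction Psmg2 was at 0.45 (DESeq2 adjusted p = 0.125). The interferon-induced activator subunits Psme1 and Psme2 were not called in any comparison with all 12 libraries. Psme1 was at -0.37 between the cell types, and was called lower in macrophages without the 2 libraries (-0.36, DESeq2 adjusted p = 7.37e-04) and with the GC correction (-0.62, DESeq2 adjusted p = 0.0169). Psme1 was at 255 ± 138, 326 ± 30.8, 389.9 ± 4.15 and 305 ± 112 TPM (SD, n = 3 each) in eYFP+, eYFP-, Ly6Chi and Ly6Clo cells.

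Of 17 regulators of class I transcription, 3 were higher and 3 lower in macrophages, which is 6 of 17 called beside 35.3% of all genes. Irf8, a myeloid interferon regulatory factor, was higher by 1.60 ± 0.46 (DESeq2 adjusted p = 0.00220) and Rfx5, the DNA-binding subunit with which Nlrc5 acts, by 1.37 ± 0.33 (DESeq2 adjusted p = 1.92e-04). Irf2 fell by 1.21 ± 0.26 (DESeq2 adjusted p = 2.96e-05), Irf9 by 0.46 ± 0.16 (DESeq2 adjusted p = 0.0156) and Nfyc, a subunit of the Y box factor, by 0.42 ± 0.16 (DESeq2 adjusted p = 0.0261). Irf1, which induces class I genes after interferon, passed in none of the 3 comparisons and was at 178 ± 68.2, 177 ± 30.9, 158 ± 17.8 and 112 ± 80.6 TPM (SD, n = 3 each) in eYFP+, eYFP-, Ly6Chi and Ly6Clo cells. Among the monocytes Stat2 was higher in Ly6Chi (1.89 ± 0.52, DESeq2 adjusted p = 0.00570, edgeR adjusted p = 0.0582) and Nfkb1 lower (-1.03 ± 0.27, DESeq2 adjusted p = 0.00414).

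Interferon receptors and their kinases and inhibitors had 6 of 10 genes lower and none higher in macrophages, where 15.0% of all genes were lower and 20.3% higher. Socs3 was lower by a log2 fold change of -2.86 ± 0.50 (DESeq2 adjusted p = 1.41e-07), the kinase Jak2 by -1.27 ± 0.34 (DESeq2 adjusted p = 8.72e-04) and the interferon gamma receptor chain Ifngr2 by -1.05 ± 0.24 (DESeq2 adjusted p = 8.11e-05). Between the monocyte groups DESeq2 and edgeR called none of the 10, and 4 had an unadjusted p under 0.05.

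**Figure D4:**
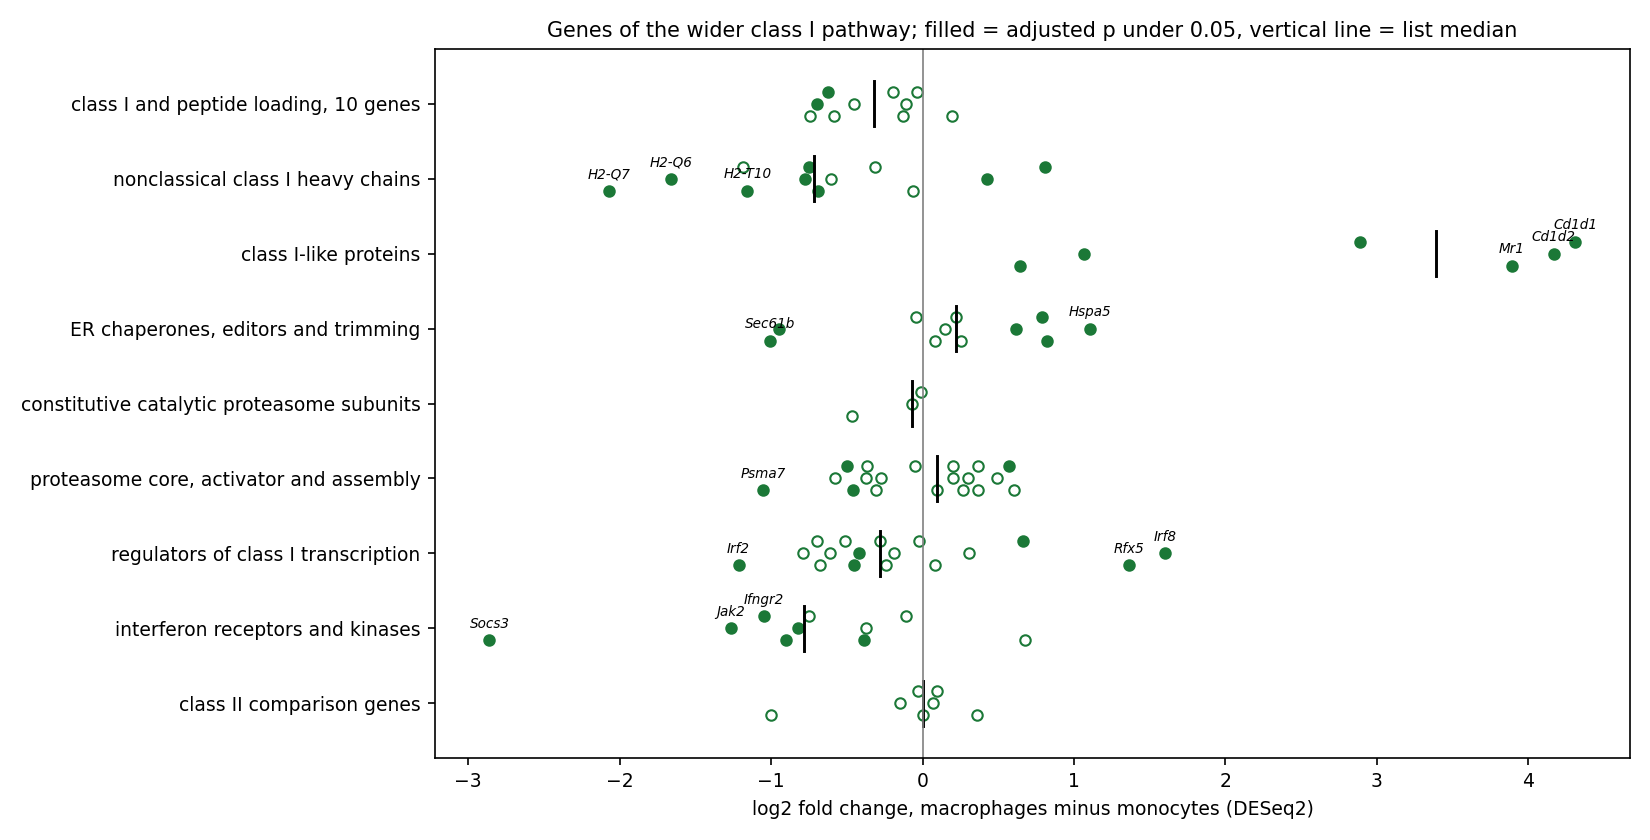
Log2 fold change, macrophages minus monocytes, of each tested gene of the 10 and of the wider pathway lists (horizontal axis, log2 units; filled points have a DESeq2 adjusted p under 0.05, vertical lines are list medians). The class I-like proteins lie to the right of 0, with 6 of 6 tested genes called, while the interferon receptors and kinases lie mostly to the left, with 6 of 10 called; the class II comparison genes have no call.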

How the data were processed

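Polyadenylated RNA of sorted bone marrow cells was turned into amplified full-length cDNA without molecular identifiers, tagmented and sequenced in pairs, so that depth limits counting error only. As the study's methods describe, reads were trimmed by the authors, who corrected sequencing errors, removed ribosomal RNA, aligned with segemehl to GRCm39 (Ensembl) and deposited counts of unambiguously assigned read pairs per gene from featureCounts, with the use of strand not given in the sources used here. The authors also deposited TPM values (counts divided by gene length and scaled to one sum) and variance-stabilised values close to log2, made with DESeq2. The submitters' processing notes name bcl2fastq 2.20.0.422, featureCounts and DESeq2.

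Here the counts of 12 libraries were tested with DESeq2 1.42.0 (R 4.3.3) in 1 fit with group as the factor, median-of-ratios size factors, Wald tests, independent filtering and a threshold of 0.05 on p adjusted by Benjamini and Hochberg. Log2 fold changes are unshrunken, and all genes were tested and adjusted together. Levels are TPM. Proteasome ratios were compared by exact permutation tests (scipy 1.17.1), and correlations used the variance-stabilised values. Promoters came from RefSeq (GRCm38.p6). GC content and sequence shared between genes (50-base windows) came from the GENCODE M21 transcripts (an earlier build, used for names and composition only), where 96.3% of tested genes had a GC value.

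Sample titles gave the groups and the replicate numbers. The 10 genes and all lists were chosen with earlier results of these data known. The 10 genes and a set of further genes (among them Psmb5, Psmb6, Psmb7, Irf1, Rfx5, Calr, Canx, Pdia3, Psme1 and Psme2) were to be named whatever their values, and 1 gene of the set is not reported here. From each pathway list, up to 3 called genes with the highest and 3 with the lowest log2 fold change and a mean of at least 50 normalized counts were named, and for likeness the 3 genes with the highest correlation and a mean of at least 100 normalized counts. Marker lists are of macrophages, monocytes, B, T and NK, dendritic, erythroid, neutrophil, megakaryocyte, and stromal and endothelial cells. Alternatives were edgeR 4.0.16, other size factors and filters, limma 3.58.1 on log2(TPM + 1) or log2(TPM + 0.1), a GC correction, the replicate number as a block, stricter thresholds, the 6 libraries of a comparison and leaving out each library. For the ratios and correlations, leaving out 2 libraries together was chosen after seeing the data. Scripts were tested on simulated data with known changes.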

Additional observations from a re-analysis of the deposited data

How the results depend on the processing

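Of 800 recomputed log2 fold changes of the 10 genes, 708 kept their direction and their side of the threshold, 26 lost and 22 gained a call and 44 changed sign, all of the last in estimates that were not called. No alternative gave a call between eYFP+ and eYFP- macrophages. The cause of single changes was not tested. Total-count scaling moved the mean log2 fold change of the 10 genes by -0.10 between the macrophage groups, and TMM moved it by at most 0.02. The call counts of the pathway between macrophages and monocytes stayed within 28 to 42 and between macrophage groups within 0 to 1 when each library was left out.

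The number of the 10 genes called between the monocyte groups went from 1 to 0 with edgeR, with edgeR and the replicate block, with only the 6 libraries of the comparison, at an adjusted p under 0.01 and at a change of at least 2-fold, to 2 with the GC correction, to 3 without both libraries that stood apart, and to 0 to 2 leaving out each library. Between macrophages and monocytes it went from 2 to 1 without independent filtering, with the replicate block in DESeq2 or edgeR and with limma in all 3 forms, to 4 with the GC correction and block, 5 with the GC correction, 7 without both libraries, 0 at an adjusted p under 0.01 and at 2-fold, and 0 to 6 leaving out each library. With the GC correction 10.3% of all genes were called between the monocyte groups and 38% between the cell types. Without both libraries these shares were 13.6% and 41.2%. Replicate numbers were not shown to pair the libraries, since correlations of same-numbered deviations were 0.126, 0.00728 and 0.0422 in macrophages and 0.0610, -0.00427 and 0.000565 in monocytes. The block took the DESeq2 adjusted p of Psmb10 between the cell types to 0.0873.

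Of the single-group contrasts, eYFP+ against Ly6Chi and eYFP- against Ly6Chi both went from 0 to 4 without both libraries and to 0 to 4 leaving out each. eYFP+ against Ly6Clo went from 2 to 1 with edgeR, to 0 without filtering, with the block and with edgeR and the block, to 1 with each limma form, to 4 without both libraries and to 0 to 2 leaving out each. eYFP- against Ly6Clo went from 2 to 1 with edgeR, without filtering and with the block, to 0 with edgeR and the block and with limma on log2(TPM + 1) or log2(TPM + 0.1), to 1 with unfiltered limma, to 4 with the GC correction and to 0 to 3 leaving out each. The wider pathway between the monocyte groups went from 11 to 5 with edgeR, 3 with edgeR and the block, 6 with only 6 libraries, 7 with limma on either log2 scale, 17 without both libraries and 7 to 14 leaving out each.

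Signs changed as follows, none in a called estimate. Without both libraries, eYFP+ minus eYFP- was 0.0689 for H2-D1, 0.00333 for Psmb9 and -0.00745 for Tapbp, and Ly6Chi minus Ly6Clo was 0.44 for Psmb10, 0.0839 for Psmb8 and -0.21 for Tap2. With the GC correction, eYFP+ minus eYFP- was 0.14 for Psmb10 (0.12 with the block), and Ly6Chi minus Ly6Clo was -0.27 for Psmb9 (-0.25 with the block) and -0.0218 for Tap2. Ly6Chi minus Ly6Clo of Psmb10 was 0.0413 with edgeR, 0.0337 with TMM, 0.0058 with the replicate block, 0.0634 with edgeR and the block, 0.0738 with limma on log2(TPM + 1), filtered or not, and 0.0744 on log2(TPM + 0.1). Tapbp was -0.0461 between the macrophage groups with total-count scaling and 0.12 between the cell types with each limma form. Leaving out each library, eYFP+ minus eYFP- ran from -0.68 to 0.0776 for H2-D1, -0.0316 to 0.36 for H2-K1, -0.22 to 1.10 for Nlrc5, -0.20 to 0.0574 for Psmb10, -0.28 to 0.0417 for Psmb8, -0.25 to 0.0114 for Psmb9 and -0.0397 to 0.14 for Tapbp. Ly6Chi minus Ly6Clo ran from -0.25 to 0.44 for Psmb10, -0.48 to 0.0853 for Psmb8 and -0.21 to 0.59 for Tap2, and macrophages minus monocytes from -0.44 to 0.16 for Nlrc5, -0.0733 to 0.37 for Tap2 and -0.40 to 0.0749 for Tapbp.

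For log2 ratios, Psmb10/Psmb7 between the cell types was -0.26 without both libraries and -0.60 with the replicate block, neither past the threshold (pairing by number cannot give an exact permutation p under 0.25), and ran from -0.70 to -0.27 leaving out each. Between the monocyte groups it was 0.18 without both libraries and ran from -0.91 to 0.18, and between the macrophage groups from -0.13 to 0.0173. Psmb8/Psmb5 ran from -0.25 to 0.18 between the macrophage groups and from -0.38 to 0.10 between the cell types, where it was 0.000654 without both libraries. Between the monocyte groups it ran from -1.27 to -0.26. Psmb9/Psmb6 was -0.15 between the monocyte groups and 0.43 between the macrophage groups without both libraries, and ran from -0.15 to 0.90, from -0.40 to 0.43 and, between the cell types, from -0.50 to 0.0379.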

Other observations

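The MHC class II genes, which present peptides from outside the cell and answer to the related transactivator Ciita, were taken as a comparison. Between the monocyte groups 5 of 7 were lower in Ly6Chi and none higher, where 4.96% of all genes were lower and 3.66% higher. H2-Ab1 fell by 3.50 ± 0.49 on the log2 scale (DESeq2 adjusted p = 2.33e-10), H2-Eb1 by 3.47 ± 0.34 (DESeq2 adjusted p = 4.93e-22) and H2-Aa by 2.73 ± 0.35 (DESeq2 adjusted p = 1.12e-12). B2m, the 1 of the 10 loading genes called there, differed by -0.75 ± 0.23, and the heavy chains H2-Q6 and H2-Q7, called as well, by -2.28 ± 0.68 and -1.97 ± 0.58. The difference between class I and class II genes was not tested. Between macrophages and monocytes DESeq2 and edgeR called none of the 7, with 1 at an unadjusted p under 0.05, and between eYFP+ and eYFP- macrophages they called none, with 0 at an unadjusted p under 0.05. The dendritic cell genes that move with Ly6C move with these genes too, and their part was not tested.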
